A study of Sus scrofa with 12 samples.

Results

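SERPINB7, CST6, SPINT2 and WFDC2 are 4 inhibitors of proteases, and each belongs to a different inhibitor family. They were chosen by their measured levels in these same arrays, with the differences by pregnancy and by breed in view. Their probe sets were then taken as all those whose array annotation gives one of the 4 symbols as the only gene symbol. This gave 6 probe sets of 23999, and 4 genes of 6765 with a probe set of their own. SERPINB7 and CST6 have 1 probe set each, and SPINT2 and WFDC2 have 2 each. The rule works by symbol and has no threshold on the values.

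The tissue was porcine endometrium, the lining of the uterus, collected on Day 14 after insemination and measured on Affymetrix GeneChip arrays, 1 array for each of 12 sows. Pregnant sows were compared with non-pregnant sows that had been inseminated with inactivated semen. Each state had 3 Yorkshire and 3 Landrace sows, which makes 4 groups of 3. The non-pregnant Yorkshire sows were sows 1, 3 and 11, the pregnant Yorkshire sows 2, 4 and 12, the non-pregnant Landrace sows 5, 7 and 9, and the pregnant Landrace sows 6, 8 and 10. All uteri were flushed before the tissue was cut from several stretches of each horn, with epithelium and connective tissue but without the muscle coat. Ages were not given, and whether the pieces of a sow were pooled was not stated. The values were log2 expression levels, so a difference of 1 is a doubling, and a fold is 2 raised to the difference.

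Serpins trap a protease by offering a bait loop that the enzyme cuts, after which both are locked together. Cystatins block lysosomal cysteine proteases by filling the active site, Kunitz inhibitors plug serine proteases with a rigid loop, and WAP proteins carry a small domain held by disulphide bonds that in many relatives inhibits serine proteases. In the pig the conceptus attaches to an intact uterine epithelium and does not invade it, although pig trophoblast can invade when placed elsewhere. Protease inhibitors are long known as part of the secretion of the pig uterus. Of the 4 genes, SERPINB7 encodes an intracellular serpin best known from the upper layers of the skin. CST6 encodes cystatin E/M, a secreted inhibitor of cathepsin L, cathepsin V and legumain. SPINT2 encodes a Kunitz inhibitor held in the membrane of epithelial cells, which blocks matriptase, prostasin and hepsin. WFDC2, also called HE4, encodes a secreted WAP protein of reproductive and airway epithelium.

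Across the series, array medians lay between 6.25 and 6.30, and array lower quartiles between 4.56 and 4.70. No detection calls were used, so a level under its array's lower quartile is called dim here. Of 10 listed epithelial markers, 9 were measured, and all 9 were above the array median in every sow. Sow 7, non-pregnant, stood apart: its correlation with the array most like it was 0.975, against 0.983 or more for the others, and its leukocyte marker mean was 1.81 above the non-pregnant mean. Sow 12, labelled pregnant, and sow 11, labelled non-pregnant, were each other's most similar arrays (r = 0.992). The conceptus trophoblast marker mean was high in sows 10 and 6, at 2.42 and 0.70 above the non-pregnant mean, and between -0.09 and 0.06 in the other pregnant sows. Non-pregnant sows ran from -0.23 to 0.25, the highest being sow 7. IFNG and PAG6 had the largest pregnancy differences of that list (2.25 and 1.28), and each was dim on 10 of 12 arrays. CYP17A1, CYP19A1 and HSD3B1 had -0.10, -0.02 and -0.01. An RNA quality sign, the level of the 3′ GAPDH control probe set minus that of the 5′ one, was 0.87 to 1.25 in Landrace and 1.31 to 1.63 in Yorkshire sows. That difference of -0.42 passed an exact permutation test over sows (two-sided, p = 0.00216, adjusted over 18 tests 0.0195). It did not pass between pregnancy states (difference 0.16, exact permutation p = 0.273), in a permutation that took no account of breed. RNA quality and breed therefore moved together, and the breed differences of the 6 probe sets are given below with that sign as a covariate as well. Within Landrace the sign also separated the states, at 1.15 to 1.25 in pregnant and 0.87 to 1.04 in non-pregnant sows. Within Yorkshire it was 1.49 to 1.59 in pregnant and 1.31 to 1.63 in non-pregnant sows, with overlap.

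SERPINB7 was at or near the bottom of the array in most non-pregnant sows and above the array median in every pregnant sow. In non-pregnant Yorkshire sows its log2 level was 3.13, 3.05 and 3.01 in sows 1, 3 and 11. In non-pregnant Landrace sows it was 4.90, 7.85 and 3.21 in sows 5, 7 and 9. In 4 of the 6 non-pregnant sows it was dim, and of these 6 only sow 7 reached the pregnant range. Pregnant Yorkshire sows 2, 4 and 12 measured 8.10, 8.69 and 6.80. Pregnant Landrace sows 6, 8 and 10 measured 9.01, 7.74 and 8.19. The 2 states overlapped only through sow 7 at 7.85, which lay above sows 8 and 12. On its own array SERPINB7 stood above 2.75% of all probe sets in sow 11 and above 90.5% in sow 6. In sow 12, the lowest pregnant sow, it stood above 58.3%.

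The mean of SERPINB7 was 8.09 ± 0.78 (SD, n = 6) in pregnant and 4.19 ± 1.93 (SD, n = 6) in non-pregnant sows. The difference was 3.90 on the log2 scale (SE 0.67), with 6 of 6 pregnant sows above the non-pregnant mean. No fold is given for SERPINB7, because 4 of the 6 non-pregnant values were dim and how far they lie above background is not known. Since this contrast was in view when the gene was chosen, the difference is a description and carries no test. Within Yorkshire, where all 3 non-pregnant values were dim, it was 4.80, with no overlap. Within Landrace, where 1 was dim, it was 2.99, with overlap. Without sow 7 the difference over both breeds was 4.56, and without sows 6 and 10 it was 4.01. The level order was non-pregnant Yorkshire (3.06 ± 0.06, SD, n = 3), non-pregnant Landrace (5.32 ± 2.35), pregnant Yorkshire (7.86 ± 0.97) and pregnant Landrace (8.31 ± 0.64). The last 2 groups did not differ beyond their spread, and the spread of non-pregnant Landrace reached into both.

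**Figure D1:**
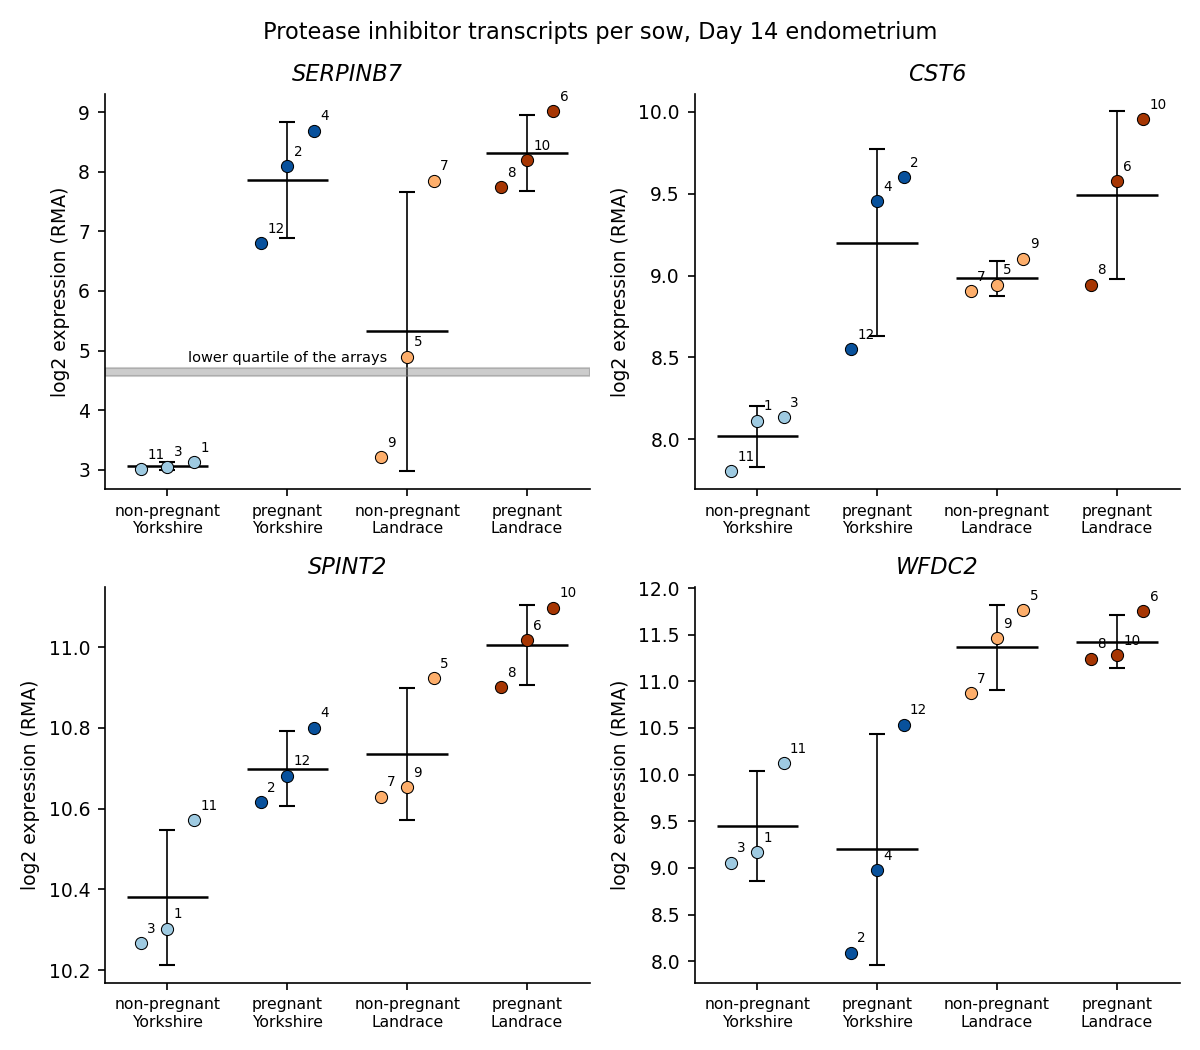
Log2 expression of the 4 inhibitors in each of 12 sows (numbered points), by group, with the mean (bar) and SD (whiskers) of 3 sows; the axes differ between panels and do not start at 0, and the grey band is the range of the arrays' lower quartiles. SERPINB7 separates pregnancy states except for sow 7, CST6 is lowest in the non-pregnant Yorkshire sows, SPINT2 steps up with both factors, and WFDC2 separates the breeds.

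CST6, the cystatin, was lowest in the non-pregnant Yorkshire sows and higher in all 3 other groups. Its levels in non-pregnant Yorkshire sows 1, 3 and 11 were 8.11, 8.14 and 7.80. In non-pregnant Landrace sows 5, 7 and 9 they were 8.94, 8.90 and 9.10. The non-pregnant sows of the 2 breeds did not overlap. Pregnant Yorkshire sows 2, 4 and 12 had 9.60, 9.46 and 8.55. Pregnant Landrace sows 6, 8 and 10 had 9.58, 8.94 and 9.96. Sow 12 was the lowest pregnant sow, under all 3 non-pregnant Landrace sows, and sow 8 lay among those 3.

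For CST6 the mean was 9.35 ± 0.51 (SD, n = 6) in pregnant and 8.50 ± 0.55 (SD, n = 6) in non-pregnant sows, a difference of 0.85 (SE 0.21; 1.80-fold). Within Yorkshire the difference was 1.18 (2.27-fold) without overlap, and within Landrace 0.51 (1.42-fold) with overlap. The order of the groups was non-pregnant Yorkshire (8.02 ± 0.18, SD, n = 3), non-pregnant Landrace (8.98 ± 0.10), pregnant Yorkshire (9.20 ± 0.57) and pregnant Landrace (9.49 ± 0.51). Neighbours among the upper 3 groups did not differ beyond their spread. The gap between the breeds was 0.97 in non-pregnant sows (1.95-fold) and 0.29 in pregnant sows (1.22-fold), where the breeds overlapped.

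SPINT2, the membrane-bound Kunitz inhibitor, differed by little between the groups and had a small spread. On the probe set with the higher mean, non-pregnant Yorkshire sows 1, 3 and 11 had 10.30, 10.27 and 10.57. Non-pregnant Landrace sows 5, 7 and 9 had 10.92, 10.63 and 10.65. The first breed lay wholly below the second. Pregnant Yorkshire sows 2, 4 and 12 had 10.62, 10.80 and 10.68. Pregnant Landrace sows 6, 8 and 10 had 11.02, 10.90 and 11.10. Only sow 5 kept the Landrace states from separating, by 0.02 on the log2 scale.

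SPINT2 averaged 10.85 ± 0.19 (SD, n = 6) in pregnant and 10.56 ± 0.24 (SD, n = 6) in non-pregnant sows, a difference of 0.29 (SE 0.08; 1.23-fold). By breed it averaged 10.87 ± 0.19 (SD, n = 6) in Landrace and 10.54 ± 0.21 (SD, n = 6) in Yorkshire sows, a difference of 0.33 (SE 0.08; 1.26-fold). These sizes were near each other. Within strata the pregnancy difference was 0.32 in Yorkshire and 0.27 in Landrace, and the breed difference 0.35 in non-pregnant and 0.31 in pregnant sows. The strata are parts of the same differences, so their likeness is a description and no support. The order was non-pregnant Yorkshire (10.38 ± 0.17, SD, n = 3), pregnant Yorkshire (10.70 ± 0.09), non-pregnant Landrace (10.74 ± 0.16) and pregnant Landrace (11.01 ± 0.10), and the middle 2 did not differ beyond their spread.

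The second SPINT2 probe set differed by breed, and by pregnancy only within its error. It read 6.52, 6.37 and 5.91 in sows 1, 3 and 11, and 6.43, 6.44 and 5.96 in sows 2, 4 and 12. In Landrace it read 6.64, 6.70 and 6.51 in sows 5, 7 and 9, and 6.95, 6.70 and 6.89 in sows 6, 8 and 10. Sows 11 and 12 were low here, whereas on the other probe set they were not. Its pregnancy difference was 0.12 (SE 0.12), made of 0.01 in Yorkshire and 0.23 in Landrace, and its breed difference was 0.46 (SE 0.12; 1.38-fold). Over the 12 arrays the pair correlated at 0.54, and at -0.28 once the 4 group means were removed.

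WFDC2, the secreted WAP protein, differed by breed, and by pregnancy less than its error. On the probe set with the higher mean, non-pregnant Yorkshire sows 1, 3 and 11 had 9.17, 9.06 and 10.12. Pregnant Yorkshire sows 2, 4 and 12 had 8.09, 8.97 and 10.53. Sows 11 and 12 were thus the highest Yorkshire sows of their state. Non-pregnant Landrace sows 5, 7 and 9 had 11.76, 10.87 and 11.46. Pregnant Landrace sows 6, 8 and 10 had 11.75, 11.24 and 11.28. Every Landrace sow lay above every Yorkshire sow, and the gap between sow 7 and sow 12 was 0.34.

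WFDC2 averaged 11.39 ± 0.34 (SD, n = 6) in Landrace and 9.32 ± 0.88 (SD, n = 6) in Yorkshire sows, a difference of 2.07 (SE 0.35) or 4.20-fold. It was 1.91 (3.77-fold) in non-pregnant and 2.22 (4.67-fold) in pregnant sows. Pregnant and non-pregnant sows averaged 10.31 ± 1.46 and 10.41 ± 1.15 (SD, n = 6 each), a difference of -0.10 (SE 0.35). The order was pregnant Yorkshire (9.20 ± 1.24, SD, n = 3), non-pregnant Yorkshire (9.45 ± 0.59), non-pregnant Landrace (11.36 ± 0.45) and pregnant Landrace (11.42 ± 0.28). Only the step between the breeds exceeded the spread. No marker list of a cell type passed between the breeds, the smallest adjusted p being 0.302 (exact permutation test over sows). The list differences, Landrace minus Yorkshire, ran from -0.24 for stroma to 0.56 for trophoblast, with 0.44 for leukocytes and 0.05 for epithelium. The part of cell types in the WFDC2 breed difference was not tested.

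The second WFDC2 probe set did not follow the first. It read 5.96, 5.93 and 5.70 in sows 1, 3 and 11, and 6.29, 6.0 and 5.88 in sows 2, 4 and 12. In Landrace it read 6.26, 6.24 and 6.22 in sows 5, 7 and 9, and 5.80, 6.0 and 5.73 in sows 6, 8 and 10. The 3 non-pregnant Landrace sows were level with each other and lay above all pregnant Landrace sows. Its breed difference was 0.08 (SE 0.12) over all sows, 0.38 in non-pregnant and -0.22 in pregnant sows. Its values stayed within the middle of the array, above 40.8% to 50.2% of all probe sets. The pair correlated at -0.09 over the 12 arrays and at -0.78 once the group means were removed. Which of the 2 reads the transcript was not tested.

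**Figure D2:**
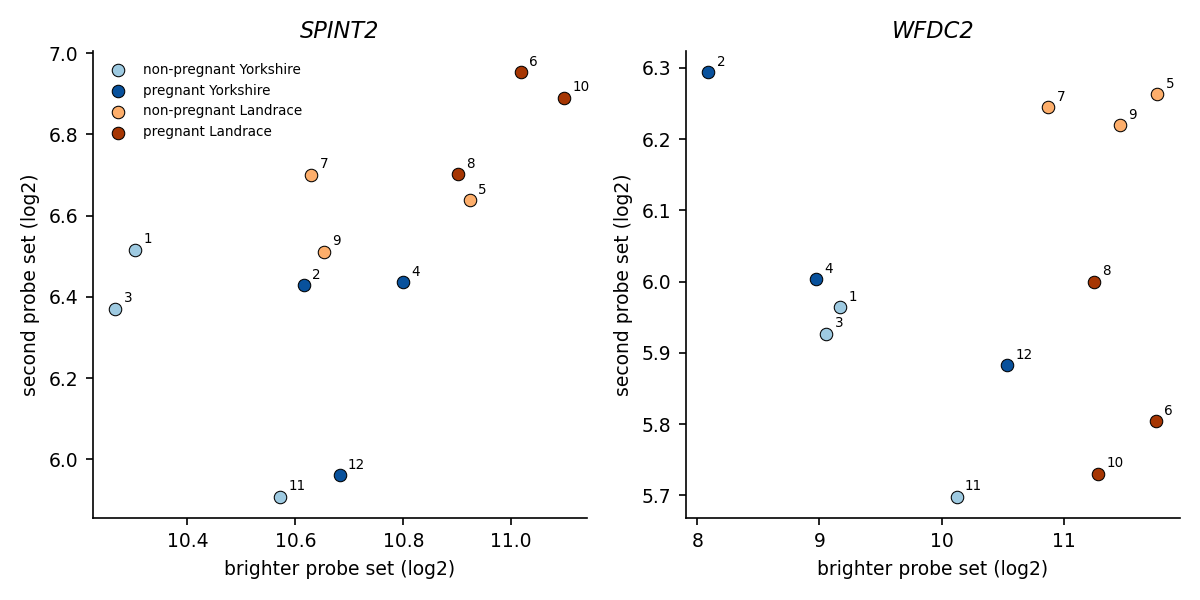
Log2 expression on the second probe set (vertical) against the probe set with the higher mean (horizontal) of SPINT2 and WFDC2, 1 numbered point per sow, coloured by group; the axes do not start at 0. For SPINT2 both axes place Landrace sows higher, with sows 11 and 12 low on the second, and for WFDC2 the horizontal axis splits the breeds while the vertical one does not.

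Counts of calls for the 6 probe sets are given with their background only, since both contrasts were in view when the genes were chosen, and nothing is read from them. In limma's fit over all 12 arrays, a call is an adjusted p under 0.05. For pregnancy, 3 of 6 were called higher (SERPINB7, CST6 and the first SPINT2 probe set) and 0 lower, where 3.95% of all probe sets were called higher and 3.94% lower. For breed, 3 of 6 were called higher in Landrace (WFDC2 and both of SPINT2) and 0 lower, where 2.22% were called higher and 2.93% lower. SERPINB7's pregnancy call and WFDC2's breed call were kept when any 1 sow was left out. The genes were chosen on these same arrays, so a kept call is no support for a difference. The CST6 pregnancy call was lost without sow 1, 2, 3, 4, 5, 6, 10 or 11, with differences from 0.72 to 1.01 over the 12 such fits. The SPINT2 pregnancy call was kept without sow 5, 8 or 11 and lost without any other sow, with differences from 0.27 to 0.34. The SPINT2 breed call was lost without sow 1, 2, 3, 5, 6, 10 or 12, with differences from 0.29 to 0.37. The breed call of its second probe set was kept only without sow 1, with differences from 0.38 to 0.53.

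No member separated all pregnant from all non-pregnant sows (0 of 6, background 1.3%), and 1 of 6, WFDC2, separated the breeds with Landrace above (background 1.24%). Among non-pregnant sows, 5 of 6 probe sets had all Landrace above all Yorkshire sows (background 8.88%); the exception was the second of SPINT2. Among pregnant sows, 3 of 6 did so (background 8.89%), WFDC2 and both of SPINT2. Within Yorkshire, 3 of 6 had all pregnant above all non-pregnant sows (background 9.08%), namely SERPINB7, CST6 and SPINT2. Within Landrace only the second SPINT2 probe set did so (background 12%), by 0.0016, and the second WFDC2 probe set had all pregnant sows below (background 9.5%).

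Whether the effect of pregnancy differed between the breeds was tested for each member. The differences by pregnancy and by breed were in view when the members were chosen. Whether their interaction was also in view is not known, so these tests carry that limit. The interaction was taken as the Landrace effect minus the Yorkshire effect in limma's 4-group fit. For SERPINB7 it was -1.80 (95% interval -4.62 to 1.01). For CST6 it was -0.68 (-1.55 to 0.20). In both genes pregnant and non-pregnant sows lay closer together in Landrace, where the non-pregnant sows were higher, but the intervals include 0. For SPINT2 it was -0.05 (-0.41 to 0.31), and for WFDC2 0.31 (-1.28 to 1.90). The second SPINT2 probe set had 0.22 (-0.31 to 0.75). The second WFDC2 probe set had -0.59 (-0.98 to -0.21), from differences of 0.20 in Yorkshire and -0.40 in Landrace. That interval, which is not adjusted for the number of probe sets, is the only one without 0. After adjustment over all probe sets none passed (limma adjusted p = 0.9996 for each of the 6). Over the whole array 0 probe sets were called for the interaction (0%). Of 23999 probe sets, 963 had an unadjusted limma p under 0.05, a share below the 0.05 that chance alone would give. A fit with array weights called 2. Leaving out sow 5 gave 1 call, sow 12 gave 18, and sows 7 and 12 together 29. The interval of SERPINB7 is wide, so these 3 sows a group do not show that its pregnancy effect is alike in the breeds.

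**Figure D3:**
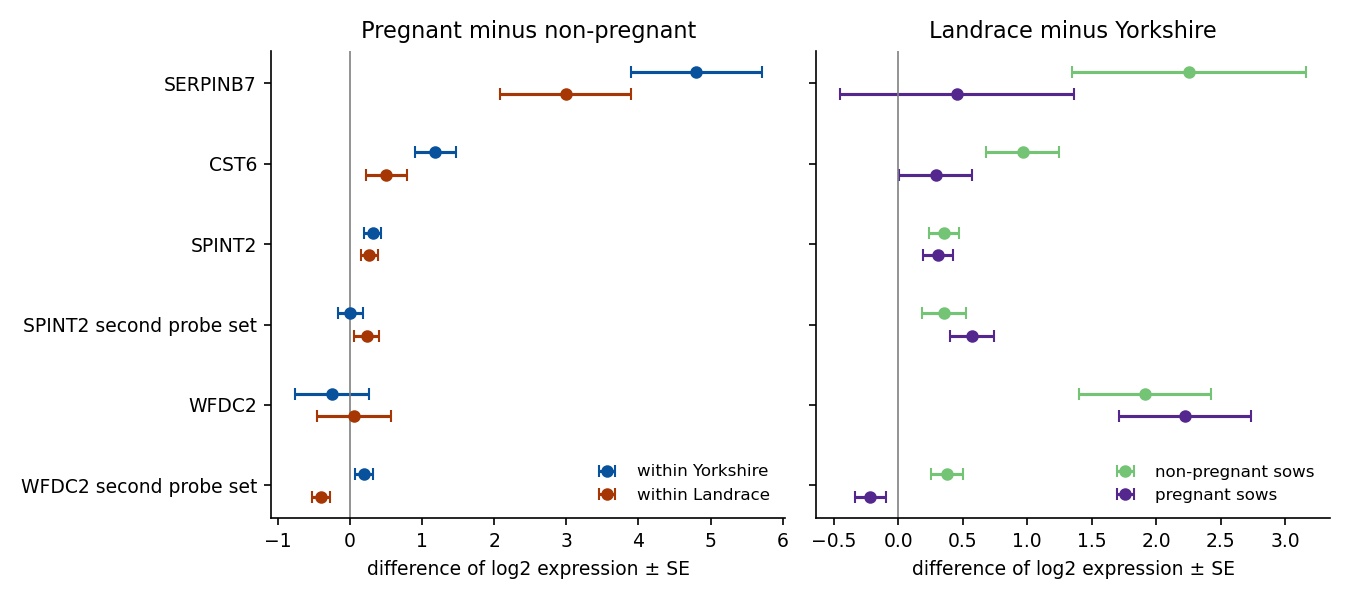
Differences of log2 expression (point) with their SE (whisker) for the 6 probe sets, pregnant minus non-pregnant within each breed on the left and Landrace minus Yorkshire within each pregnancy state on the right. SERPINB7 and CST6 have their larger breed difference in non-pregnant sows (2.26 and 0.97), and WFDC2 lies near 2 in both states.

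With the RNA quality sign as a covariate, the breed values moved in different directions. That of WFDC2 was 3.79 (SE 0.76) and that of the first SPINT2 probe set 0.70 (SE 0.17), both larger than without it and with larger errors. Neither was called in that fit, in which 0 probe sets of the whole array were called for breed. The second SPINT2 probe set had 0.07 (SE 0.30), where it had 0.46 without the covariate, and the second WFDC2 probe set had -0.46 (SE 0.27), where it had 0.08. That of CST6 was 0.08 (SE 0.55), and that of SERPINB7 was -0.33 (SE 1.72), which turns the direction. In the 4-group fit with the covariate, WFDC2 had 3.97 (SE 0.99) in non-pregnant and 3.77 (SE 0.80) in pregnant sows, and neither was called. That fit uses a shared slope of the sign for all groups, so these values are not separate support for a larger difference. Because the sign did not overlap between the breeds, breed and RNA quality cannot be told apart for any of the 4 genes. The pregnancy differences with the same covariate were 4.56 for SERPINB7, 1.06 for CST6, 0.15 for SPINT2 and -0.77 for WFDC2. In that fit 0 probe sets of the whole array were called for pregnancy either. Within Landrace, where the sign did not overlap between the states, SPINT2 had 0.03 (SE 0.13), and within Yorkshire 0.21 (SE 0.10).

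Of the cell type marker lists, only the endothelial list passed between pregnancy states. In bulk tissue, fewer cells of a type and less RNA per cell cannot be told apart. The endothelial list (7 of 7 measured) lay 0.71 higher in pregnant sows (exact permutation p = 0.00216, adjusted 0.0195), from 0.40 to 1.06 against -0.34 to 0.24 in non-pregnant sows. The stromal list (7 of 8) lay 0.47 higher (exact permutation p = 0.0108, adjusted 0.0649). The epithelial list (9 of 10) lay at -0.60 to 0.13 in pregnant and -0.14 to 0.12 in non-pregnant sows (exact permutation p = 0.0563, adjusted 0.218). Its genes moved both ways: limma called MUC1 higher in pregnant sows (0.29) and KRT8 (-0.83) and CLDN7 (-0.47) lower. The neutrophil list had 3 of 7 genes measured. It lay at -0.24 to 1.94 in pregnant and -0.40 to 0.61 in non-pregnant sows (exact permutation p = 0.0606, adjusted 0.218). Its gene S100A8 had a pregnancy difference of 1.53 (limma adjusted p = 0.167) and was dim on 3 arrays. S100A12 had 1.07 (limma adjusted p = 0.147) and was dim on 7 arrays. ELANE had only 0.03 (limma adjusted p = 0.906). Whether neutrophils differed in number was not tested. The trophoblast list lay 0.52 higher (exact permutation p = 0.216, adjusted 0.368). The smooth muscle list lay 0.31 higher (exact permutation p = 0.134, adjusted 0.302), and the leukocyte list differed by -0.01. Of the squamous epithelium list, where SERPINB7 and CST6 are best known, only IVL of 9 genes was measured, at a pregnancy difference of 0.17. The part of these lists in the 4 inhibitors' values was not tested. Sow 7, with the high leukocyte mean, was also the non-pregnant sow with high SERPINB7, and that link was not tested either.

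The 4 genes did not form 1 pattern among themselves. Over the 12 arrays SERPINB7 correlated with CST6 at 0.78, CST6 with SPINT2 at 0.75, SERPINB7 with SPINT2 at 0.68 and SPINT2 with WFDC2 at 0.65. WFDC2 correlated with SERPINB7 at 0.11 and with CST6 at 0.22. Once the 4 group means were removed, SERPINB7 and CST6 correlated at 0.22, and CST6 and WFDC2 at -0.64. These are descriptions over 12 arrays that share their groups.

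The genes most like each inhibitor were taken as the 3 with the highest Pearson correlation over the 12 arrays, among 6761 genes. For SERPINB7 they were MUC4, a large membrane mucin (0.97), TRPV6, an epithelial calcium channel (0.97), and S100A9, a calgranulin (0.96). With group means removed these were 0.92, 0.90 and 0.86, and without sow 7 they were 0.97, 0.99 and 0.96. All 3 were raised in sow 7 and low in sow 12, as SERPINB7 was: MUC4 read 7.64 in sow 7, whereas sows 5 and 9 of its group had 6.10 and 5.20, and S100A9 read 9.35 where they had 3.62 and 3.54. S100A9 read 7.72 in sow 12 against 12.1 to 12.8 in the other pregnant sows. Sows 7 and 12 thus took middle places in each of these genes.

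For CST6 the most like genes were FXYD3, a small regulator of the sodium pump (0.96), SMAD3, a transducer of TGF-beta signals (0.95), and SLC25A33, a mitochondrial carrier (0.95), and 0.88, 0.91 and 0.81 with group means removed. SMAD3 was lowest among non-pregnant sows in sow 11 (5.04) and among pregnant sows in sow 12 (5.67), as CST6 was. For SPINT2 they were C7H14orf119 (0.92), PDLIM5, an adaptor of the actin skeleton (0.91), and APOA1, an apolipoprotein (0.90), and 0.68, 0.44 and 0.83 with group means removed. PDLIM5's likeness therefore rested mostly on the group means. For WFDC2 they were RPL19, a ribosomal protein (0.94), CMTM6, a membrane protein (0.92), and RAN, a nuclear transport GTPase (0.92), and 0.86, 0.69 and 0.66 with group means removed. RPL19 covered a far smaller span than WFDC2, from 12.1 in sow 2 to 12.6 in sow 9.

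**Figure D4:**
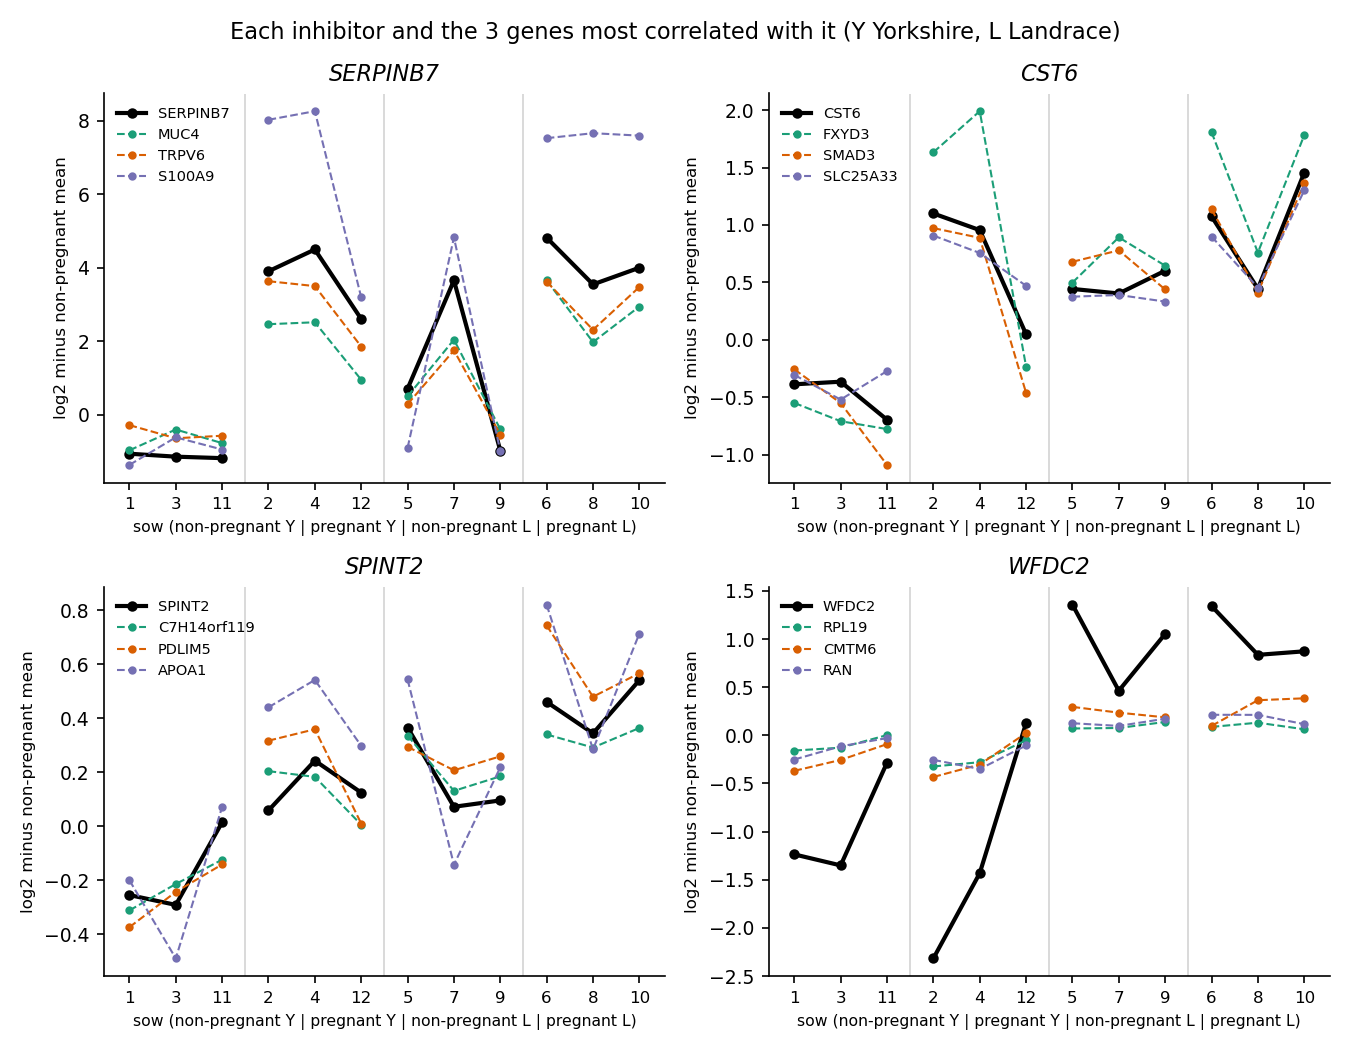
Log2 expression minus the gene's non-pregnant mean in each sow, for each inhibitor (black) and the 3 genes most correlated with it (coloured, dashed); lines join the 3 sows of a group and stand for no order. Sow 7 is high and sow 12 low in the SERPINB7 panel, and the genes like WFDC2 move the same way over a much smaller range.

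Genes that lie beside the inhibitors in the RefSeq gene order of Sscrofa11.1 were looked at for 3 of them. SERPINB7 lies in the clade B serpin cluster next to SERPINB11, with SERPINB2 next but one on its other side. SERPINB11, a serpin of that cluster, had a pregnancy difference of 1.15 (SE 0.45, limma adjusted p = 0.139), and was dim on 9 of 12 arrays. SERPINB2, which encodes an inhibitor of plasminogen activators, had -0.13 (adjusted p = 0.808 in limma) and was dim on 11 of 12. Neither neighbour passed the test. Without sow 12, SERPINB11 had 1.49 and passed (limma adjusted p = 0.0294). WFDC2 lies next to UPTI, the uterine plasmin and trypsin inhibitor of the pig, which belongs to the Kunitz family. UPTI had a breed difference of -0.46 (limma adjusted p = 0.284) and a pregnancy difference of -0.33 (adjusted p = 0.447). Within 6 genes of WFDC2, PIGT was called lower in Landrace (-0.31, limma adjusted p = 0.0422) and WFDC10AL was not called for either contrast. Within 6 genes of SPINT2, PPP1R14A was called higher in pregnant sows (0.51, limma adjusted p = 0.0271), PSMD8 was called lower (-0.25, adjusted p = 0.0378), and YIF1B had -0.27 (adjusted p = 0.0750). The 2 called neighbours of SPINT2 thus went in opposite directions.

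Around the 4 genes, 7 lists of other inhibitors and of the proteases they block held 150 genes, 67 of them measured. For pregnancy, 2 of 67 were called higher and 0 lower, a share near or under the 3.95% and 3.94% of all probe sets, so nothing about the lists is read from it. The median difference was 0.04, and 0.01 over all probe sets. ITIH5, a heavy chain that stabilises hyaluronan in the matrix, rose from 7.20 to 7.81 (difference 0.61, SE 0.12, limma adjusted p = 0.0139), with 6 of 6 pregnant sows above the non-pregnant mean. It was called whichever sow was left out. CAST, calpastatin, the inhibitor of calpains, rose from 8.34 to 8.73 (difference 0.39, SE 0.10, limma adjusted p = 0.0331). CAST lost its call without sow 1, 2, 3, 4, 5, 6, 8 or 9 (adjusted p up to 0.0788), and its 4 other probe sets were not called. Both lost their calls with the epithelial marker mean as a covariate (ITIH5 0.52, limma adjusted p = 0.135; CAST 0.34, adjusted p = 0.229) or the RNA quality sign (0.45, adjusted p = 0.189; 0.33, adjusted p = 0.235). The genes of the epithelial mean moved both ways with pregnancy, so that covariate is not a plain measure of epithelial share.

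By family, 0 of 14 measured serpins were called for pregnancy, with a median of -0.04. SERPING1, the C1 inhibitor of complement, had 0.84 (limma adjusted p = 0.119). None of 6 cystatins was called, with a median of 0.08; AHSG, the plasma protein fetuin-A, had 0.30 (limma adjusted p = 0.104) and CSTB, an intracellular cystatin, -0.16 (adjusted p = 0.468). A dimmer probe set of KNG1, a kininogen with cystatin domains, was called at 0.86 (limma adjusted p = 0.0354). Its mean level of 4.21 was under the lowest array lower quartile, 4.56. None of 11 Kunitz, WAP and Kazal inhibitors was called, with a median of 0.12. SPINK5, a Kazal inhibitor of skin kallikreins, had 0.19 (limma adjusted p = 0.183) and was dim on all 12 arrays. WFDC1, a small WAP protein, had 0.37 (limma adjusted p = 0.184). SPINT1, the nearest relative of SPINT2, had 0.03 (limma adjusted p = 0.889). SLPI, a WAP inhibitor of neutrophil elastase, had 1.45 (SE 0.64, limma adjusted p = 0.199). Of 12 inhibitors of metalloproteases and of broad range, ITIH5 and CAST were the 2 called, with a median of 0.19. TIMP2, which blocks matrix metalloproteases, had 0.96 (limma adjusted p = 0.0634), and its second probe set was called at 0.84 (adjusted p = 0.0239). SPINT1, KNG1, SLPI, TIMP2 and UPTI were picked for mention after their values were seen.

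Among the proteases, 0 of 7 membrane serine proteases and substrates on the SPINT2 side were called for pregnancy, with a median of -0.13. ST14, the gene of matriptase, had 0.39 (limma adjusted p = 0.280) and EPCAM, a substrate, -0.14 (adjusted p = 0.372). None of 9 cathepsins and related enzymes on the CST6 side was called, with a median of 0.19. CTSC, which activates neutrophil proteases, had 0.86 (limma adjusted p = 0.0620) and CTSB, the lysosomal cathepsin B, 0.19 (adjusted p = 0.376). The CST6 targets CTSV and LGMN had -0.04 (limma adjusted p = 0.831) and 0.24 (adjusted p = 0.541). None of 8 kallikreins and neutrophil or fibrinolytic proteases was called, with a median of 0.02; PLAT, the tissue plasminogen activator, had 0.46 (limma adjusted p = 0.0752) and PLG, its substrate plasminogen, 0.16 (adjusted p = 0.249).

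Sow 7 decided part of these counts. Without it 9 of 67 were called higher, adding CTSB, CTSC, CTSS, ITIH3, PLAT, SERPING1 and SLPI to ITIH5 and CAST. SLPI then had 2.01 (SE 0.47, limma adjusted p = 0.0238) and SERPING1 1.12 (SE 0.22, adjusted p = 0.0123). Without sow 12, 4 were called, with SERPINB11 and PLG added. Without sow 8, 3 were called (CTSC, ITIH5 and TIMP2). Without sow 1, 2, 3, 4, 6 or 9, ITIH5 alone was called. The background moved as well: fits without 1 sow called from 514 to 1201 of all probe sets higher. Nothing about the lists is read from these counts.

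For breed, 0 of 67 were called higher and 3 lower in Landrace, where 2.22% of all probe sets were called higher and 2.93% lower, and 0 were called for the interaction. A count of 3 is near that background, and nothing about the lists is read from it. SERPINH1, the collagen chaperone HSP47, which is a serpin without inhibitor function, had -0.69 (SE 0.13, limma adjusted p = 0.0111). TIMP3, a matrix-bound inhibitor of metalloproteases, had -0.75 (SE 0.10, limma adjusted p = 0.00242), and its second probe set -0.45 (adjusted p = 0.0146). SCNN1A, the alpha subunit of the epithelial sodium channel, had -0.47 (SE 0.08, limma adjusted p = 0.00764). On their main probe sets, SERPINH1, TIMP3 and SCNN1A were each called whichever sow was left out. Each lost its call with the RNA quality sign as a covariate, at -0.32, -0.49 and -0.67 (limma adjusted p = 0.834, 0.689 and 0.550). The 3 dimmer probe sets of CTSC were called higher in Landrace by 1.48 to 1.65 (limma adjusted p = 0.0163 to 0.0231), while its main probe set had 0.82 (adjusted p = 0.0891).

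**Figure D5:**
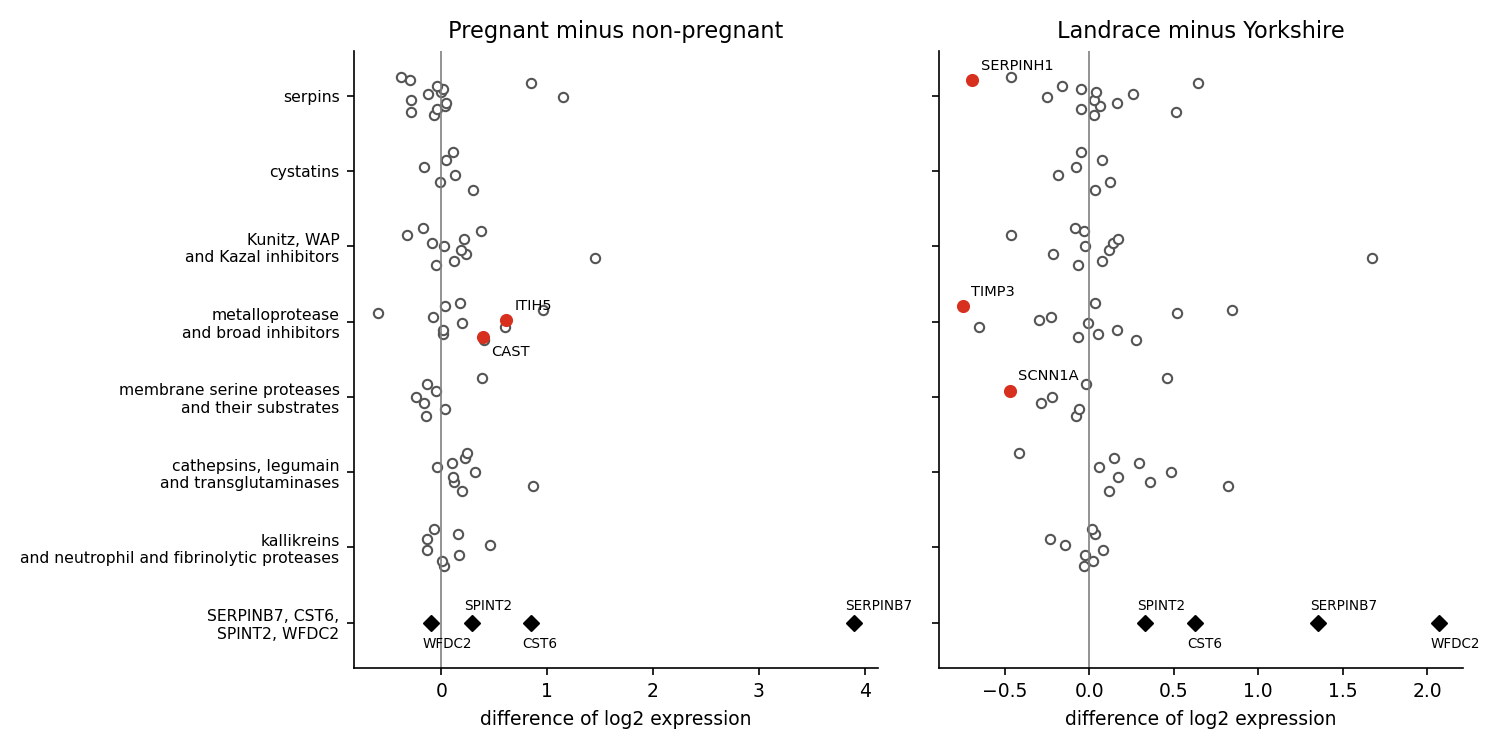
Differences of log2 expression for the 67 measured genes of 7 lists (circles; red and named where limma's adjusted p was under 0.05) and for the 4 inhibitors (diamonds), for pregnancy on the left and breed on the right. ITIH5 and CAST are the genes called for pregnancy, SERPINH1, TIMP3 and SCNN1A those called for breed, and SERPINB7 (3.90) and WFDC2 (2.07) lie to the right of all listed genes in their panels.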

How the data were processed

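Total RNA from 12 sows was hybridised to porcine Affymetrix arrays, and the deposited values were log2 expression, made with RMA according to the submitters' processing notes, which name affy and limma without versions. The genome build was not given in the sources used here. Of 24123 probe sets, 124 controls were left out. Of the rest, 10069 carried 1 symbol, 198 several and 13732 none. The members and the gene lists were chosen with earlier results of these data known. Each gene was represented by its probe set with the highest mean. In limma 3.58.1 (R 4.3.3), pregnancy and breed were fitted together (9 residual degrees of freedom), and strata and interaction in a 4-group fit (8), with Benjamini-Hochberg adjustment over 23999 probe sets and a threshold of 0.05. The fits were tested on simulated data. A test of breed was planned for the members, but breed values were in view when they were chosen. Its calls are therefore given with their background only, and nothing is read from them. Called pathway genes were named, up to 4 a list with the smallest p, or the 2 with the smallest p where none was called. For each member, the 3 genes most correlated with it were named. Markers and RNA quality were compared by exact permutation (924 arrangements, two-sided). Arrays give no read depth; 3 sows a group limit the precision. Labels show separate sows but no separate extractions, so p-values measure the spread between these samples. Alternatives covered normalisation, dim probe sets, array weights, covariates, probe set choice and leaving out sows.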

Additional observations from a re-analysis of the deposited data

Results flagged for a closer look

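In 188 groups of 6 sows, over 47 reported values per sow, 9 had 1 sow far from the other 5 by Dixon's criterion, which chance meets in about 1 group of 20. Sow 7 accounted for most of them. Its leukocyte marker mean was 1.81 above the non-pregnant mean, next to -0.25 for the nearest non-pregnant sow and 0.25 for the nearest Landrace sow. Its SERPING1 level was 11.31 against 9.72 at most in the other non-pregnant sows, its CTSB level was 12.03 against 11.36, and its S100A9 level was 9.35 against 3.91. Sow 12 had S100A9 at 7.72, where the next lowest pregnant sow had 12.06. Sow 10 had a conceptus trophoblast marker mean of 2.42, next to 0.70 in sow 6, which stood out both among pregnant and among Landrace sows. Sow 3 had WFDC1 at 7.81 against 8.66 or more in the other Yorkshire sows. None of the 6 probe sets of SERPINB7, CST6, SPINT2 and WFDC2 met the criterion.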

How the results depend on the processing

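Pathway genes called higher in pregnant sows numbered 2, and 4 with dim probe sets left out, 10 with array weights, 11 without sows 7 and 12, 4 as an average over the 4-group fit, 1 without sows 6 and 10 (chosen after seeing the data), 0 with the GAPDH or epithelium covariate, and 1 to 9 without 1 sow. Over all probe sets 947 were higher and 945 lower: 1697 and 1943 with array weights, 1492 and 1721 without sows 7 and 12, 106 and 44 without sows 6 and 10, 579 and 586 with no breed term, 63 and 14 with the epithelium covariate, 0 and 0 with GAPDH, and 514 to 1201 and 437 to 1425 without 1 sow. For breed, 533 were higher and 703 lower in Landrace: 0 and 0 with GAPDH, 439 lower without sows 7 and 12, and 332 to 613 and 465 to 729 without 1 sow. Pathway genes higher in Landrace were 1 under cyclic loess, median centring or the epithelium covariate, and 0 to 2 without 1 sow; those lower were 0 with GAPDH. Interaction calls were 2 with array weights, 29 without sows 7 and 12, and 0 to 18 without 1 sow.

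The SPINT2 pregnancy difference was 0.12 on the probe set with the largest spread, without a covariate. With GAPDH it was 0.15 on the main probe set, breed differences were -0.33 for SERPINB7, 0.077 for CST6, 0.70 for SPINT2 and 3.79 for WFDC2, the WFDC2 interaction was -0.20, and CSTB turned to 0.14. Without 1 sow the interaction ran from -0.25 to 0.98 for WFDC2 and from -0.14 to 0.045 for SPINT2. The causes were not tested. No paired analysis was possible because the groups share no replicate numbers.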
